A study of Mus musculus with 8 samples.

Results

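The immunoglobulin heavy chain variable (Ighv) gene segments of the mouse were taken as every row of the count and TPM tables whose gene name starts with Ighv and a digit, which gave 183 of the 53242 rows. All of them lie on chromosome 12 of the GRCm39 build, on the minus strand, and the GENCODE annotation classes 113 as variable genes and 70 as variable pseudogenes. The libraries were made from splenic B cells of C57BL/6 mice aged 8 to 12 weeks, with 1 mouse for each of the 4 control and 4 knockout (4A1 KO) libraries. Control mice were Eif4a1+/+ CD23-cre and 4A1 KO mice were Eif4a1fl/fl CD23-cre, so that both genotypes carried the Cre transgene, which is driven by the promoter of Cd23 and acts from the immature B cell stage in the spleen, after heavy chain genes have been assembled. The cells were activated for 24 h with 40 ng/ml IL4 on irradiated CD40LB cells, a fibroblast line that presents CD40 ligand and secretes BAFF, which was then depleted with an antibody to H-2Kd. Replicates 1 and 3 were male and replicates 2 and 4 female, replicates 1 and 2 were batch A and replicates 3 and 4 batch B. Replicate 1 of both genotypes is shown but was not used in the tests, since the study left it out for reduced viability. Group values are therefore means ± SD of replicates 2 to 4 (n = 3) unless all 8 libraries are named.

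Each B cell joins 1 Ighv segment to a D and a J segment on the heavy chain locus, and the promoter in front of that segment then drives a messenger RNA that runs through the variable exon into a constant region such as Ighm. The summed RNA of all Ighv segments thus follows the amount of heavy chain messenger, whereas the share of each segment follows how often it is present and how strongly its promoter is used. A diverse B cell population uses many segments at unequal frequency, and an expanded clone or a specialised B cell subset adds to the share of its own segment. In bulk RNA, fewer cells with a segment and less RNA per cell cannot be told apart.

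The element shared by most of these promoters is the octamer ATGCAAAT, which binds the POU factors Oct1 and Oct2 and, through them, the B cell coactivator encoded by Pou2af1. The octamer was searched on both strands from 250 bases before to 50 bases after the annotated start of every gene. It was found in the window of 91 of the 113 Ighv genes (80.5%) and 37 of the 70 pseudogenes (52.9%), against 2.3% of the 78287 annotated genes of the build. In the Ighv genes that had it, the octamer always read in the direction of the gene, and its end lay a median of 99 bases before the annotated start. In Ighv11-2 the octamer lay within the annotated gene, at its very start. The windows below are shown because these segments carry the results, as abundant segments (Ighv1-82, Ighv5-17 and Ighv3-6) or as segments whose share was apart between the genotypes or in single libraries. Each is written 5′ to 3′ along the minus strand of GRCm39, in the direction of transcription, with the octamer in capitals.
Ighv5-17, chr12:113823349-113823378: agcaggatgatATGCAAATaattcttctct
Ighv14-2, chr12:113958605-113958634: gcctcatgagtATGCAAATcatgtgagact
Ighv1-22, chr12:114710416-114710445: tggtcatgaatATGCAAATtacctaagtct
Ighv3-6, chr12:114252293-114252322: tgtctccctgcATGCAAATgcttcttctaa
Ighv11-2, chr12:114012414-114012443: agcaggaaggcATGCAAATagggcctcttt
Ighv1-82, chr12:115916679-115916708: tgctcatgaatATGCAAATtacttgagcct
No octamer with these letters was present in the windows of Ighv1-26, Ighv2-2 and Ighv2-3, which were also among the 12 segments with the largest mean TPM. The median over the genes of their mean TPM was 3.58 for the 91 with an octamer and 3.99 for the 22 without one.

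The libraries held 31727557 to 43210858 counts, of which 2181 to 6645 fell on Ighv segments. Eif4a1, the targeted gene, was at 828, 747, 936 and 888 CPM (counts scaled to the total of the library) in control libraries 1 to 4 and at 593, 557, 635 and 691 CPM in the 4A1 KO libraries. The groups did not overlap, although the log2 fold change of -0.44 (adjusted p = 1.15e-04, edgeR quasi-likelihood test with Benjamini-Hochberg adjustment) was smaller than the 0.5 used here as the minimum for a call. Per the study's methods, the floxed allele loses only some of the exons of Eif4a1. Counts over the whole gene therefore do not measure how complete the deletion was. The B cell marker Ms4a1, at 521 to 652 CPM in the 8 libraries, did not pass the test, while Cd79b (log2 fold change -0.89), Cd22 (-0.76) and Cd79a (-0.67), which belong to the B cell receptor or its regulation, were called lower. No T cell marker exceeded 0.101 CPM. Plasma cell markers summed to 333 to 366 CPM in the control and 129 to 180 CPM in the 4A1 KO libraries, and 4 of the 5 tested were called lower, where 13.7% of all genes tested were called lower and 11.6% higher. Among them were Xbp1, a transcription factor of secretory cells, with a log2 fold change of -0.94, and Mzb1, a chaperone of the IgM heavy chain, with -1.82. In the marginal zone list 4 of 6 genes were called lower and 1 higher. The part of these genes in the Ighv results was not tested. The spread was measured between single mice, with 3 per genotype.

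Of the 183 segments, 123 had at least 1 count in the 8 libraries and 60 had none. The 113 annotated genes accounted for 99.25% of the 35789 Ighv counts, 104 of them had a count and 84 had a count in every library. The 70 pseudogenes contributed 269 counts in all, or 0.752%, and 51 of them had none. The repertoire in the data was thus almost wholly one of annotated genes, in which 14 of the 113 had at most 1 count in all libraries together. Some segments cannot be told from their neighbours by sequence. Ighv1-72, the segment known from the response to the hapten NP, shared every 50-base word of its exons with another place in the genome, and had 0 to 4 counts in a library although its TPM was 1.7 to 5.0. The counts of Ighv1-71, which also had no word of its own, were 0 throughout. How the counting treated reads that match several places is not given in the sources used here, so the levels of such segments are uncertain.

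The order of the segments was led by Ighv3-6, Ighv1-26, Ighv1-82 and Ighv5-17, with mean TPM over the 6 libraries of 32.3, 31.1, 25.2 and 23.6. They were followed by Ighv1-18 (21.9), Ighv9-3 (21.1), Ighv1-80 (20.2), Ighv5-4 (17.9), Ighv8-8 (17.5), Ighv2-2 (17), Ighv6-3 (15.9) and Ighv2-3 (14.7). In control libraries 1 to 4 the TPM of Ighv1-26 was 36.7, 35.7, 37.0 and 42.3, and in the 4A1 KO libraries it was 24.1, 25.4, 23.3 and 22.8. The genotypes did not overlap. Ighv1-82, the next in order, lay below Ighv1-26 in each of the 8 libraries, at 33.3 ± 1.22 TPM in the control and 17 ± 3.71 TPM in the 4A1 KO libraries. It did not differ beyond the spread between libraries from Ighv5-17, the one after it, at 32.1 ± 2.98 and 15.0 ± 1.3 TPM. The first place of Ighv3-6 and the presence of Ighv2-3 among the 12 each rested on 1 library, as described further on.

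**Figure D1:**
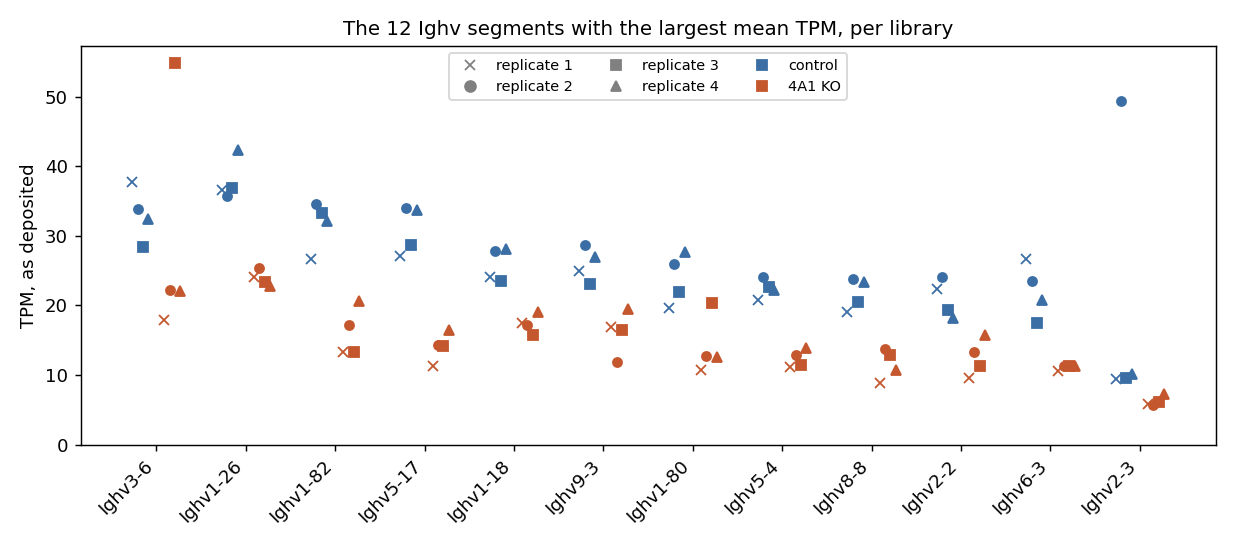
TPM as deposited (vertical axis) of the 12 Ighv segments with the largest mean TPM (horizontal axis), with 1 point per library, control in blue and 4A1 KO in orange, and the replicate given by the symbol. In all but Ighv3-6 and Ighv1-80, where 4A1 KO replicate 3 was at 54.9 and 20.4 TPM, the orange points lie below every blue one. Ighv2-3 stands out in control replicate 2 at 49.4 TPM.

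Ighv1, the largest family and the one that fills the far portion of the locus, held 45.5% ± 2.79 of the Ighv counts in control and 43.2% ± 4.45 in 4A1 KO libraries. Ighv5 held 15.4% ± 0.539 and 14.5% ± 0.917, Ighv2 8.77% ± 2.26 and 7.56% ± 0.542, and Ighv3 5.55% ± 0.259 and 9.08% ± 4.46. The last mean was raised by 4A1 KO replicate 3, at 14.2%, whereas 4A1 KO replicates 2 and 4 were at 6.63% and 6.39%, below control replicate 1 at 6.88%. Ighv9, Ighv8, Ighv10, Ighv14 and Ighv6 each stood between 3.1% and 5.3% in either genotype, Ighv7 and Ighv4 between 1.6% and 2.8%, and Ighv11, Ighv12, Ighv13 and Ighv15 below 1%. The single Ighv16 segment, Ighv16-1, had 0 counts in all 8 libraries, which allows a share of up to 0.138% in the smallest library (3 counts of 2181). Of the larger families, Ighv10 was at 4.39%, 4.24%, 3.40% and 3.35% in control libraries 1 to 4 and at 2.84%, 3.28%, 3.21% and 2.91% in the 4A1 KO libraries. These values did not overlap in the 8 libraries, with a narrow gap between the lowest control and the highest 4A1 KO library. The same was true of Ighv2 and Ighv5 together, at 22.5% to 26.3% in control and 20.5% to 22.4% in 4A1 KO libraries.

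Segments at all distances from the J segments were used. Upstream of Ighj1, the 500 kb nearest to it held 25.4% ± 2.23 of the control and 23.3% ± 0.544 of the 4A1 KO counts, and the stretch from 2000 to 2600 kb held 18.7% ± 1.51 and 17.7% ± 1.09. The stretch from 500 to 1000 kb, which holds Ighv3-6, was at 21.7%, 20.3%, 20.1% and 20.1% in control libraries 1 to 4 and at 22.6%, 21.8%, 29.5% and 23.5% in the 4A1 KO libraries. It was higher in all 4A1 KO than in all control libraries, with 4A1 KO replicate 3 far above the others. The gap between control replicate 1 (21.71%) and 4A1 KO replicate 2 (21.77%) was narrow. The stretch also holds Ighv11-2, which had 1.27% and 1.40% of the Ighv counts in 4A1 KO replicates 2 and 4 and at most 0.249% elsewhere. The part of single segments in this difference was not tested. The recombination genes Rag1, Rag2 and Dntt were at 0 in most libraries and at most 0.078 CPM. Of the surrogate light chain genes, Igll1 and Vpreb2 were at 0 in all 8 libraries and Vpreb1 was at most 0.139 CPM, while the related Vpreb3 was at 1.25 to 2.22 CPM.

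**Figure D2:**
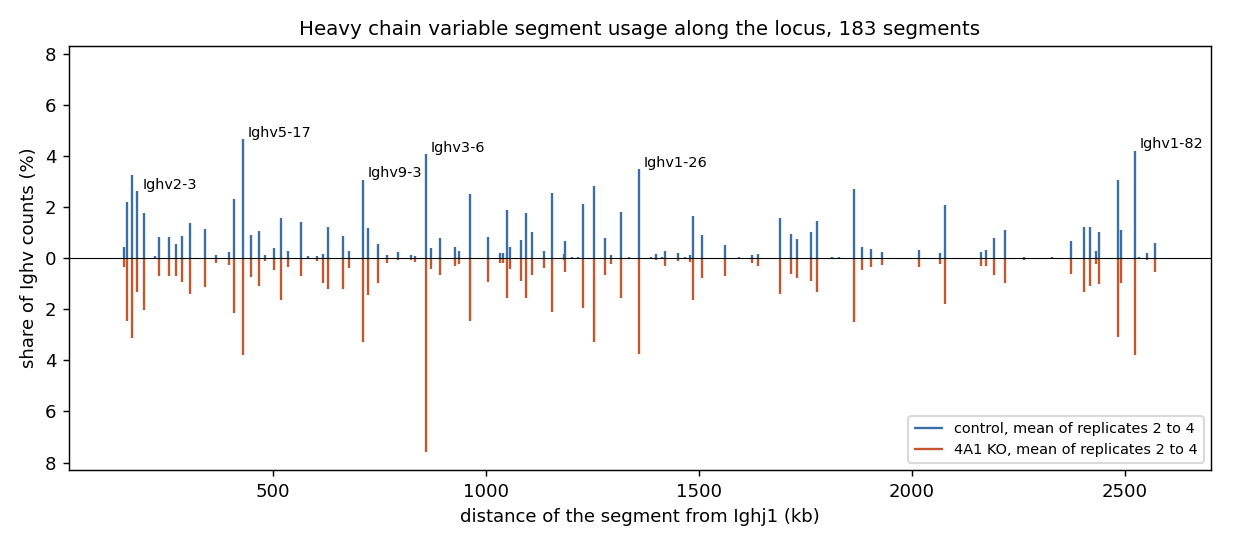
Share of the Ighv counts in percent (vertical axis) of each of the 183 segments by its distance from Ighj1 in kb (horizontal axis), upward in blue for control and downward in orange for 4A1 KO, as means of replicates 2 to 4. The profiles mirror each other along the locus, and the largest departure is Ighv3-6 at 4.06% in control and 7.57% in 4A1 KO, a mean that 1 library raised.

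Heavy chain variable transcripts were less abundant in 4A1 KO than in control B cells. The summed Ighv level was 146, 164, 128 and 136 CPM in control libraries 1 to 4 and 68.7, 80.0, 78.5 and 85.5 CPM in the 4A1 KO libraries. Every 4A1 KO library lay below every control library, in both batches and both sexes. The means of replicates 2 to 4 were 143 ± 19.1 and 81.3 ± 3.66 CPM, so that the 4A1 KO libraries held 57.0% of the control level, a log2 change of -0.81 after TMM scaling. The deposited TPM gave sums of 881 ± 104 and 503 ± 27.8.

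Most of the segments that could be tested were called lower. Of the 183 segments, 78 passed the filter on low counts and entered the fit with all other genes, and 48 of them were called lower and 1 higher in the 4A1 KO libraries, where 13.7% of the 14218 genes tested were called lower and 11.6% higher (25.3% in either direction). The log2 fold change was negative for 76 of the 78, with a median of -0.83 against 0.01 over all genes tested. A segment can pass the filter through the control libraries alone and then has to be lower, so the count was also taken over the 57 segments that reached the filter's level in all 3 4A1 KO libraries, of which 45 were called lower. The 105 segments that were not tested (45 with a few counts and 60 with none) summed to 3.94, 4.30, 3.36 and 4.63 CPM in control and 1.42, 2.18, 1.52 and 2.55 CPM in 4A1 KO libraries 1 to 4, again without overlap. The number of calls depended on replicate 2, since 30 of 78 were called without it, where 3083 of all 14352 genes tested were called. DESeq2 called 26 of 78 segments and 2902 of all 14218 genes. The median log2 fold change of the segments was -0.80 without replicate 2 and -0.85 with DESeq2.

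**Figure D3:**
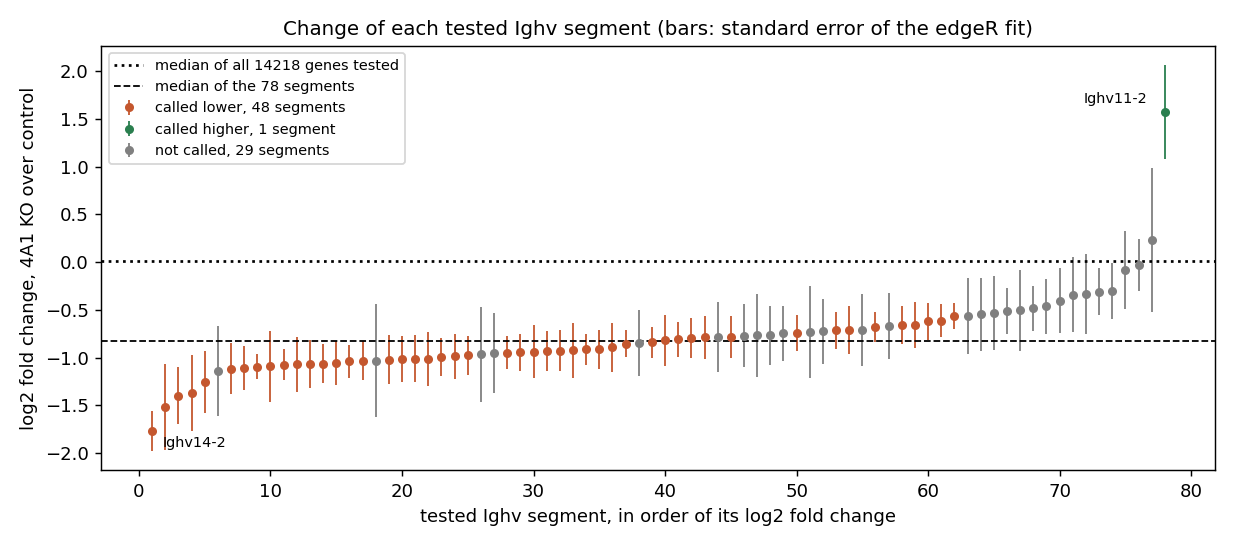
Log2 fold change of 4A1 KO over control (vertical axis) of the 78 tested Ighv segments in order of size (horizontal axis), with bars for the standard error of the edgeR fit, orange where called lower, green where called higher and grey where not called. Nearly all points lie below the dotted median of all genes tested, around a dashed median of -0.83, with Ighv11-2 at 1.57 on the other side.

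Ighv5-17 had the smallest adjusted p of the segments. Its counts were 233, 287, 247 and 294 in control libraries 1 to 4 and 78, 114, 119 and 144 in the 4A1 KO libraries, and its log2 fold change was -1.09 (SE 0.13, adjusted p = 1.37e-04, edgeR with Benjamini-Hochberg adjustment as for all that follow). The next smallest belonged to Ighv14-2, the segment with the largest fall, which had 74, 88, 80 and 82 counts in control and 26, 23, 24 and 24 counts in 4A1 KO libraries (log2 fold change -1.77, SE 0.21, adjusted p = 1.57e-04). No 4A1 KO library reached a control library for either segment. Of the 20 called segments with the smallest adjusted p, 10 were Ighv1 segments, with log2 fold changes from -1.40 (Ighv1-52) to -0.81 (Ighv1-39). The others came from 6 families and were Ighv5-4 (-0.85), Ighv5-16 (-0.91), Ighv8-8 (-0.91), Ighv8-12 (-0.93), Ighv10-1 (-1.06), Ighv10-3 (-0.99), Ighv6-3 (-0.84) and Ighv2-9 (-1.11), beside Ighv5-17 and Ighv14-2. Among the Ighv1 segments were Ighv1-82 (-0.95), one of the most abundant, and Ighv1-9 (-1.07), Ighv1-22 (-1.04), Ighv1-64 (-1.03) and Ighv1-42 (-1.06). Ighv1-15, Ighv1-50 and Ighv1-76 lay between -0.98 and -0.93.

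Calls were made in most families and in each stretch of the locus. Of the 37 Ighv1 segments tested 24 were called lower, with a median of -0.92, and so were 6 of 9 in Ighv5 (-0.85), 6 of 6 in Ighv2 (-0.92), 2 of 2 in Ighv10 (-1.03) and 2 of 2 in Ighv6 (-0.75). In Ighv8 and Ighv14 2 of 4 were called lower and in Ighv3 1 of 3. In Ighv9 1 of 4 was called, the leading segment Ighv9-3 (-0.71), and the family median was -0.56. Neither of the 2 tested Ighv7 segments was called, with a log2 fold change of -0.48 for Ighv7-3 (SE 0.24, adjusted p = 0.116). Single segments stood for Ighv4 (Ighv4-1, -0.74, called), Ighv13 (Ighv13-2, -1.26, called), Ighv12 (Ighv12-3, -1.03, adjusted p = 0.173) and Ighv15 (Ighv15-2, -0.34, adjusted p = 0.490). By distance from Ighj1 the median ran from -0.71 (500 to 1000 kb) to -0.94 (1000 to 1500 kb), and it was -0.85 over the 65 tested segments with an octamer and -0.78 over the 13 without. These medians were not tested against each other, and Ighv11, with 1 tested segment that rose, is described further on. For none of the 78 tested segments did a difference of the genotype effect between the sexes or the batches pass the adjustment (smallest adjusted p of a segment = 0.999, edgeR, 8 libraries, adjusted over all genes tested). Over all 14211 genes in these fits, 0 passed for the sexes and 1 for the batches, so the tests do not show that the effects were alike.

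The main heavy chain constant region was lower as well, while the light chain variable rows overlapped between genotypes. Ighm was at 3289, 3286, 2573 and 2654 CPM in control and 2072, 1991, 1789 and 1909 CPM in 4A1 KO libraries 1 to 4 (log2 fold change -0.57, SE 0.06, adjusted p = 5.6e-05). Ighd, which is transcribed through the same variable exons and spliced further downstream, was at 276, 209, 228 and 162 CPM in control and at 320, 295, 269 and 220 CPM in 4A1 KO libraries, with a log2 fold change of 0.40 (SE 0.06, adjusted p = 4.61e-04) below the size needed for a call. The fall in Ighm was thus seen in every 4A1 KO library, whereas the ranges of Ighd overlapped, with each 4A1 KO library higher than the control library of its number. Of the 11 constant region and receptor partner genes 6 were called lower and none higher. Those with the smallest adjusted p were the constant regions Ighe (-1.84, adjusted p = 9.59e-06) and Ighg1 (-0.69, adjusted p = 2.23e-05). Counts of a constant region do not show whether its transcripts carried a variable exon. The 4 Ighj rows summed to 25.5 ± 3.21 and 17.2 ± 1.61 CPM, and 3 of them were called lower.

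The kappa light chain variable (Igkv) rows summed to 404, 397, 360 and 326 CPM in control and 337, 361, 314 and 312 CPM in 4A1 KO libraries. The ranges overlapped, although each 4A1 KO library was lower than the control library of its number, and of the 87 Igkv rows tested 4 were called lower and none higher, with a median log2 fold change of -0.14. None of the 3 Iglv rows was called, and their sum of 67.4 ± 9.80 against 65.8 ± 8.96 CPM overlapped as well. There were thus 39.5 ± 3.50 Ighv counts per 100 Igkv counts in control and 24.8 ± 2.64 in 4A1 KO libraries, without overlap in the 8 libraries. Per 100 Ighm counts there were 5.03 ± 0.0882 and 4.29 ± 0.244 Ighv counts, which did not overlap in replicates 2 to 4 but did with replicate 1. Of the 14 promoter and locus factors 2 were called lower, a share near the 13.7% of all genes tested, and none higher. They were Pou2af1, the octamer coactivator (-0.97, SE 0.07, adjusted p = 1.67e-05), and Ikzf1, a lymphoid zinc finger factor (-0.67, SE 0.05, adjusted p = 1.65e-05). The octamer binding factors Pou2f1 and Pou2f2 were not called, and the part of any of these factors in the Ighv level was not tested.

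**Figure D4:**
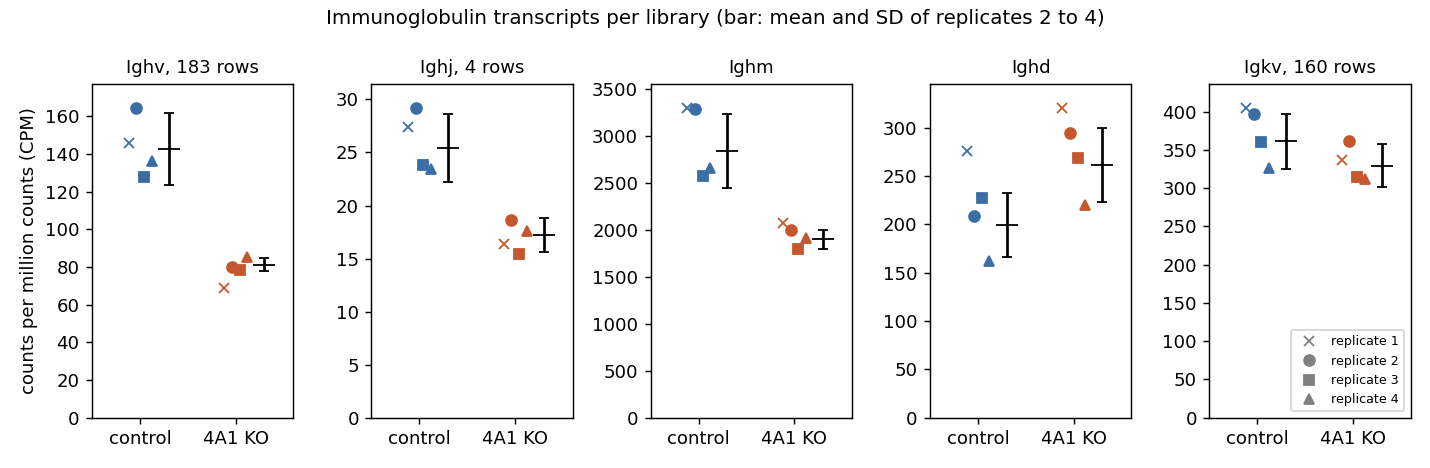
CPM (vertical axes, from 0) of the summed Ighv and Ighj rows, of Ighm and Ighd and of the summed Igkv rows, with 1 symbol per library, control in blue and 4A1 KO in orange, and the mean and SD of replicates 2 to 4 in black. The genotypes are apart for Ighv, Ighj and Ighm and overlap for Ighd and Igkv.

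Usage, the share of each segment among the Ighv counts of its library, ranked the segments alike in all libraries. Spearman's rho of the shares between 2 libraries was 0.937 to 0.972 for the 12 pairs within a genotype and 0.938 to 0.967 for the 16 pairs across genotypes, as a description over the same segments in each pair. At least 1 count was found for 106, 111, 106 and 111 segments in control libraries and for 94, 100, 99 and 102 in 4A1 KO libraries. When the expectation for the smallest Ighv total of 2181 counts was taken, the numbers were 99.2, 102, 99.7 and 103.1 against 94.0, 97.7, 96.1 and 99.2. They overlapped narrowly through control replicate 1, and replicates 2 to 4 did not overlap.

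Evenness was measured with Pielou's index, which is 1 when all detected segments have the same share. It was 0.887, 0.879, 0.887 and 0.879 in control and 0.891, 0.903, 0.860 and 0.896 in 4A1 KO libraries, with means of 0.882 ± 0.00459 and 0.886 ± 0.0228. The overlap came from 4A1 KO replicate 3 alone, since the other 4A1 KO libraries lay above every control library. Without replicate 3 the difference of 0.0045 became 0.0202. The index divides the Shannon entropy of the shares by the logarithm of the number of detected segments. That number was lower in the 4A1 KO libraries, which had fewer Ighv counts, so a higher index need not mean more even usage. The entropy itself was 4.137, 4.139, 4.137 and 4.141 in control and 4.048, 4.156, 3.953 and 4.144 in 4A1 KO libraries. By entropy 4A1 KO replicates 1 and 3 lay below every control library and replicates 2 and 4 above. The effective number of segments, the inverse of the chance that 2 counts drawn from a library come from the same segment, was 48.8, 47.6, 47.9 and 47.1 in control and 43.1, 48.7, 30.2 and 48.5 in 4A1 KO libraries. All but 4A1 KO replicates 1 and 3 were within 47.1 to 48.8. The 10 most counted segments held 32.7% to 35.9% of the counts in control and 34.2% to 42.4% in 4A1 KO libraries.

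The low value of 4A1 KO replicate 3 came with Ighv3-6, a segment that ranked high in every library. It had 289, 255, 216 and 252 counts in control libraries 1 to 4 and 110, 159, 412 and 172 counts in the 4A1 KO libraries. Its share was 12.8% in 4A1 KO replicate 3 (95% Clopper-Pearson interval 11.7% to 14.0%) and 3.84% to 5.17% in the other 7 libraries. Without this segment the effective number in 4A1 KO replicate 3 was 45.7, and the means were 47.4 ± 0.322 in control and 48.4 ± 2.40 in 4A1 KO libraries. The same library also had the largest share of Ighv14-4, at 1.62% against at most 0.715% elsewhere (a segment chosen after its values were seen). Its level of Jchain, which encodes the joining chain of secreted IgM, was 27.2 CPM, against 8.76 to 24.7 CPM in the others, while Mzb1 and Xbp1 were at 37.9 and 73.9 CPM in it, against 39.4 to 68.0 and 68.7 to 86.3 CPM in the other 4A1 KO libraries. Since the excess was in 1 mouse, the fitted log2 fold change of Ighv3-6 was -0.03 (SE 0.27, adjusted p = 0.933), and it was -0.56 (adjusted p = 0.0164) without replicate 3.

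Control replicate 2 had an excess of another segment. Ighv2-3 had 68, 355, 67 and 74 counts in control and 32, 39, 42 and 52 counts in 4A1 KO libraries, and its share was 5.34% in control replicate 2 (interval 4.81% to 5.91%) against 1.17% to 1.47% elsewhere. The call of Ighv2-3 as lower (log2 fold change -1.52, SE 0.45, adjusted p = 0.0196) was lost without replicate 2, where the change was -0.56 (adjusted p = 0.0902). This library also had the highest summed marginal zone markers, 233.5 CPM against 111 to 149 CPM, and the highest fibroblast feeder markers, 42.8 CPM against 9.30 to 26.9 CPM. Their part in the Ighv2-3 share was not tested. Of the replicate 1 libraries, both had an excess of Ighv1-78 (also chosen after its values were seen), at 2.58% in control and 3.26% in 4A1 KO, against 0.623% to 1.73% in replicates 2 to 4.

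Ighv11-2 was the only segment called higher. It is known as the heavy chain of B-1a cells that bind phosphatidylcholine, a receptor found recurrently in independent mice, where it pairs with the kappa segment Igkv14-126. The B cells of all libraries had been purified with an isolation kit of a kind that depletes cells bearing CD43, a surface protein that B-1 cells carry. Its counts were 7, 12, 11 and 8 in control and 2, 39, 8 and 51 in 4A1 KO libraries 1 to 4. The increase was thus present in the female 4A1 KO mice, replicates 2 and 4, which came from different batches, and absent from the male ones. Its share was 1.27% (interval 0.902% to 1.73%) and 1.40% (1.04% to 1.83%) in these libraries and 0.0917% to 0.249% in the other 6. The log2 fold change was 1.57 (SE 0.49, adjusted p = 0.0245), but the call was lost in the fit of all 8 libraries (1.22, adjusted p = 0.0735), without replicate 2 (adjusted p = 0.126), without replicate 4 (adjusted p = 0.166) and with DESeq2 (adjusted p = 0.0990). The estimated difference of its genotype effect between the sexes was -2.87 on the log2 scale (SE 0.75, male minus female, 8 libraries), which did not pass the adjustment over all genes.

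Igkv14-126, looked at after the Ighv11-2 values were seen, held 0.639%, 0.964%, 0.666% and 0.745% of the Igkv counts in control libraries 1 to 4 and 0.776%, 1.29%, 0.840% and 1.47% in the 4A1 KO libraries. Its largest shares were thus in the same libraries as those of Ighv11-2, 4A1 KO replicates 2 and 4, with intervals of 1.11% to 1.49% and 1.27% to 1.69%. Its log2 fold change was 0.46 (SE 0.18, adjusted p = 0.0571) and it was not called. B-1 markers did not stand out in these libraries: Cd5, Zbtb32, Bhlhe41 and Itgam together were at 8.60 and 9.18 CPM in 4A1 KO replicates 2 and 4 and at 8.97 to 12.6 CPM in the other 6, and Cd5 was at most 0.519 CPM. Ighv12-3, the other segment known for phosphatidylcholine binding, had 9 and 15 counts in 4A1 KO replicates 2 and 4 and 10 to 20 in the control libraries. Its share of the Ighv counts was 0.292% and 0.411% in 4A1 KO replicates 2 and 4 and 0.172% to 0.375% in the control libraries. In 4A1 KO replicates 1 and 3 it was 0.367% and 0.0311%. With counts this small, the intervals of its share overlapped between nearly all libraries. Its kappa partner Igkv4-91 held 0.796% to 1.12% of the Igkv counts in control and 0.804% to 0.933% in 4A1 KO libraries.

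**Figure D5:**
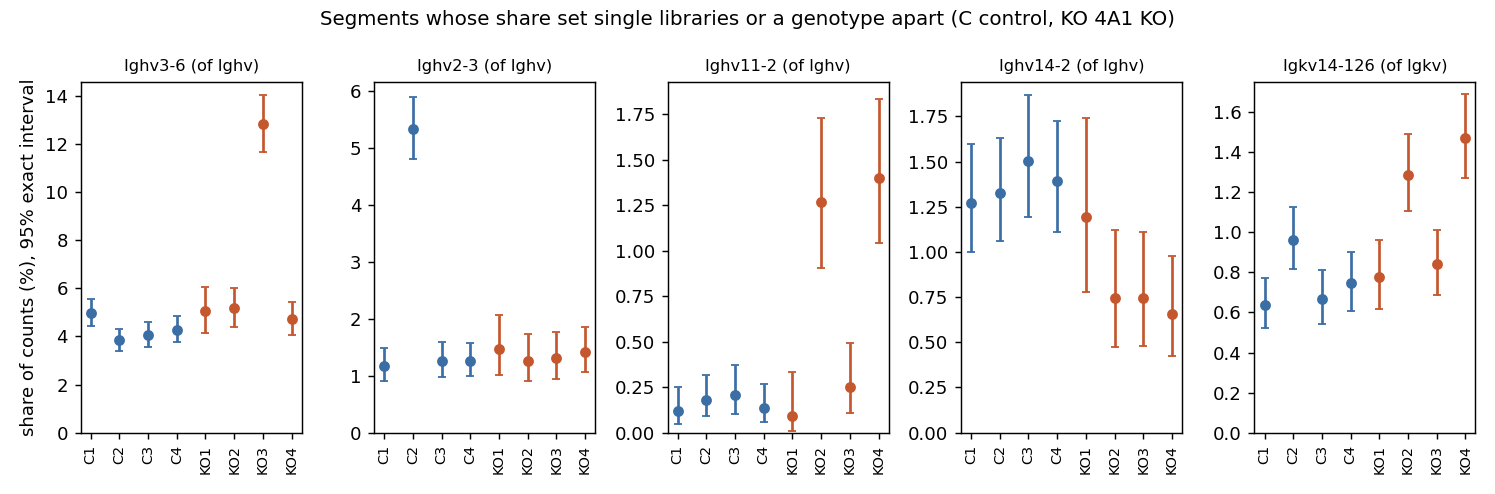
Share of the Ighv counts (first 4 panels) or of the Igkv counts (last panel) in percent, with 95% exact intervals that cover counting error only, for control (C, blue) and 4A1 KO (KO, orange) libraries 1 to 4. Ighv3-6 stands out in 4A1 KO replicate 3, Ighv2-3 in control replicate 2, Ighv11-2 and Igkv14-126 in 4A1 KO replicates 2 and 4, and Ighv14-2 is lower in all 4A1 KO libraries.

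When each segment was tested against the change of the summed Ighv counts rather than against 0, 3 of the 78 were called. Ighv14-2 had fallen further than the whole, by 0.96 on the log2 scale (SE 0.21, adjusted p = 0.00218), and Ighv11-2 (2.37, SE 0.49, adjusted p = 0.00138) and Ighv3-6 (0.78, SE 0.27, adjusted p = 0.0242) had fallen less or risen. Against the Ighv change 2.68% of all genes tested were called lower and 72.2% higher, since most genes had not fallen with the Ighv segments, and the adjustment over all genes is lenient in that setting. Before adjustment, the same edgeR test gave p below 0.05 for only these 3 of the 78. Their p were 9.36e-04 (Ighv11-2), 0.00152 (Ighv14-2) and 0.0198 (Ighv3-6), and no adjustment over the 78 segments alone was made. The calls of Ighv14-2 and Ighv11-2 were also made without each of replicates 2, 3 and 4, whereas that of Ighv3-6 was lost without replicate 3 (0.29, adjusted p = 0.128) and in the fit of all 8 libraries (0.64, adjusted p = 0.0539). In share, Ighv14-2 was at 1.27%, 1.32%, 1.5% and 1.39% in control and at 1.19%, 0.747%, 0.747% and 0.658% in 4A1 KO libraries 1 to 4. It was lower in every 4A1 KO library, least so in replicate 1. The shares of Ighv5-17, at 4.01% to 5.0% and 3.58% to 3.95%, and of Ighv1-22, at 1.73% to 1.88% and 1.40% to 1.66%, were also lower in every 4A1 KO library. Neither passed the test against the Ighv change (-0.29, adjusted p = 0.0602, and -0.23, adjusted p = 0.243). These 3 were the only tested segments of the 78 whose shares were all lower in 4A1 KO libraries, and none was higher in all of them. In CPM, by contrast, 47 of the 78 were lower in all 4 4A1 KO libraries, or 60.3% against 19.9% of all genes tested.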

How the data were processed

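RNA of 8 libraries was sequenced as paired 50-base reads. Per the study's methods and submitters' processing notes, the authors trimmed the reads with Trim Galore 0.6.6, mapped them to GRCm39 with HISAT2 2.1.0 without soft-clipping or discordant pairs, and deposited raw read counts per gene made with Seqmonk from strand-specific pairs. The authors also deposited TPM made with StringTie 2.1.1. Reads across the joint of a rearranged gene have no contiguous match in the germline genome, so an Ighv count reflects pairs that align outside that joint.

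CPM are counts divided by the library's total counts. After filterByExpr and TMM scaling, edgeR 4.0.16 (R 4.3.3) fitted the quasi-likelihood test (batch, sex and genotype, replicates 2 to 4, two-sided, Benjamini-Hochberg adjustment over all 14218 genes). A call required an adjusted p below 0.05 together with a log2 fold change beyond 0.5 in size. DESeq2 1.42.0 and limma 3.58.1 on log2(TPM + 1) were alternatives. In these libraries batch and sex together equal the replicate number as a block. The pairing comes from the batch and sex in the labels, and the deviations of same-numbered libraries correlated at 0.453, 0.380 and 0.304 over all genes, but at 0.0695, -0.218 and -0.217 over the 78 Ighv segments tested. On simulated counts 171 of 200 genes changed by a log2 of 1 were recovered among 14045 genes. Scores over the segments (sum, evenness, family shares) were given without a test.

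The segments, lists and markers were chosen with earlier results of these data known. Segments are named if they were among the 12 with the largest mean TPM, the 20 called with the smallest adjusted p, the leading one of each family, or at a share of at least 1% in a library and at least 5 times the median of the others. Of the other lists, the 2 genes with the smallest adjusted p are named, with those a comparison needs. Intervals and floors cover counting error only, and the precision of a share rests on 2181 to 6645 Ighv counts per library. Start sites and coordinates are those of GENCODE M39.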

Additional observations from a re-analysis of the deposited data

Results flagged for a closer look

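Shares of the named segments, the summed level, evenness and the family shares were examined for a library far from the other 3 of its genotype, measured as the distance to its closest neighbour over the range. Of 78 groups of 4 libraries, 9 had a ratio above Dixon's limit, and about 3.9 would be expected at 1 in 20. Ighv3-6 stood out in 4A1 KO replicate 3 (12.8%, the others 4.71% to 5.17%, ratio 0.944) and the Ighv1 family was low in the same library (38.1%, the others 45.2% to 46.5%, ratio 0.843). Ighv2-3 stood out in control replicate 2 (5.34%, the others 1.17% to 1.26%, ratio 0.979). The departures of the remaining flags were smaller. Ighv1-76 was low in 4A1 KO replicate 3 (0.841%, the others 1.18% to 1.20%, ratio 0.935), and Ighv7-3 was high in 4A1 KO replicate 4 (1.92%, the others 1.18% to 1.27%, ratio 0.886). Ighv14-2 was higher in 4A1 KO replicate 1 than in the others of its genotype (1.19%, the others 0.658% to 0.747%, ratio 0.832). In the control libraries, Ighv1-18 was high in replicate 4 (3.13%, the others 2.63% to 2.65%, ratio 0.959), as was Ighv15-2 (0.425%, the others 0.211% to 0.244%, ratio 0.844), and Ighv1-22 was low in replicate 2 (1.73%, the others 1.86% to 1.88%, ratio 0.885).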

How the results depend on the processing

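The summed Ighv level kept its direction in every alternative tried, with log2 changes from -0.88 to -0.68, -0.80 with the replicate block. The 49 calls became 42 with no replicate block, 55 with all 8 libraries, 26 with DESeq2, all of them among the 49, and 30 to 51 without 1 replicate each. Over all genes tested, 3596 calls became 3000, 3640 and 2902 in the first 3 of these settings, and 3083 to 3821 without 1 replicate each. Without 1 replicate each, the difference in evenness ran from -0.0050 to 0.0202 and that in effective number from -8.27 to 1.22, with the upper value of both without replicate 3, where the genotypes no longer overlapped. The Ighv1 share differed by -2.24 percentage points (SD of the same-numbered differences 6.73), from -5.39 to 1.31 without 1 replicate each, and the summed Ighv2 and Ighv5 share by -2.10 (SD 2.26), from -2.88 to -0.80. Taking same-numbered differences leaves these means as they are. Scaled to the Ighv total, 6 of the 78 segments were called, and 10646 of all 14218 genes tested. That scaling moved the median of all genes to 0.81, so that segments with a smaller fall had to change sign. The 8 named ones that did were Ighv1-18 (to 0.23), Ighv1-26 (0.12), Ighv15-2 (0.46), Ighv2-2 (0.18), Ighv3-6 (0.76), Ighv4-1 (0.063), Ighv7-3 (0.31) and Ighv9-3 (0.076). Ighv3-6 also changed sign with no replicate block (0.082), and its change ran from -0.56 to 0.26 without 1 replicate each (0.22 without replicate 4). Tests relative to the Ighv change, chosen after seeing the data, made 3 to 6 calls of segments without 1 replicate each. Over all genes tested they made 9187 to 10808 calls. Of 363 values of 33 named segments under the other alternatives, 324 kept direction and call, 31 lost the call, 5 gained it and 3 changed sign. The causes were not tested. Depth limits the rare segments: 60 of the 183 had no count, and low shares rest on a few counts.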
